A study of Mus musculus with 20 samples.

Results

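The Toll-like receptors (TLR) Tlr1, Tlr2, Tlr3, Tlr4, Tlr6, Tlr7, Tlr8 and Tlr9, the co-receptor Cd14 and the adaptor Myd88 were followed as a set in visceral adipose tissue (VAT) of mice. They were found by gene name among the non-control spots of a mouse expression array, where they make up 10 of 37074 gene names and 20 of 56605 probes. Probes well above background on 6 or more arrays were tested. All 10 genes were among the 25619 gene names so tested, with 19 of their 20 probes, and the probe that failed was the third probe of Tlr7, which was not above background on any array.

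The tissue was epididymal fat of male C57bl/6J mice of the F3 generation, with 1 one-colour array for each mouse. Ref mice (n = 6) and HFoleic mice (n = 6) came from a control lineage whose diet was supplemented with sunflower oil rich in oleic acid, and HFepa mice (n = 8) from a lineage given fish oil rich in eicosapentaenoic acid, an omega 3 fatty acid. Ref mice ate a standard low-fat diet, and HFoleic and HFepa mice an obesogenic diet high in fat and sucrose. No group of the omega 3 lineage on the standard diet was analysed here, so in HFepa vs. Ref the lineage and the diet cannot be told apart. The labels separate the samples by mouse and give no litter or cage. The 8 adipocyte markers examined were above background on all 20 arrays.

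TLR are receptors of innate immunity that recognise microbial molecules and some products of damaged cells. In fat, they are carried by macrophages and other immune cells and, for some members, by adipocytes and their precursors. Tlr1, Tlr2, Tlr4 and Tlr6 sit at the cell surface and respond to lipids and lipoproteins. Tlr3, Tlr7, Tlr8 and Tlr9 sit in endosomes and belong to the nucleic acid sensing class. Myd88 links all of these receptors except Tlr3 to their kinases, and Cd14 hands lipopolysaccharide over to Tlr4.

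Tlr1 and Tlr6 are related genes that lie next to each other, and each of their proteins pairs with the Tlr2 protein. Probe letters are shown for these partners as what the arrays read of them. For Tlr1 they are those of its second probe, while the Tlr1 values given below come from its brightest probe at chr5:65315994-65316053. For Tlr6 and Tlr2 they are those of the brightest probe. The printed probes lie at chr5:65316115-65316174, chr5:65344365-65344424 and chr3:83640344-83640403, all on the minus strand of mm9 as the array files give them. Capitals mark the longest run of letters that the printed Tlr1 and Tlr6 probes have in common, which is 5 of 60 bases. The printed Tlr2 probe holds these 5 letters too, in lower case, and shares a run of 7 bases with the printed Tlr1 probe. The brightest Tlr1 probe shares a run of 6 bases with the Tlr6 probe.
Tlr1: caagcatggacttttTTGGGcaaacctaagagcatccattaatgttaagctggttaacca
Tlr6: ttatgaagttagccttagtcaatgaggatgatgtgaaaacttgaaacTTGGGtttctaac
Tlr2: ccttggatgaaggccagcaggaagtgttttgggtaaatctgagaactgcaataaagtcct
Over the 158 pairs of probes of different members, the longest run in common was 8 bases. A run shared by probes says nothing of how well a probe matches the RNA of the neighbouring gene, which was not compared here. The brightest Tlr1 and Tlr6 probes lie 28.3 kb apart, and those of Tlr7 and Tlr8 lie 63.5 kb apart on the X chromosome.

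In the HFoleic group, 7 of the 10 genes were higher than in Ref, none was lower, and the fold changes of those 7 ran from 1.33 for Tlr3 to 4.75 for Tlr8. Called here means a limma p adjusted by Benjamini-Hochberg over all 39391 tested probes of under 0.05, read at the brightest tested probe of each gene. Among all 25619 genes, 15.2% were higher at that threshold, 16.7% lower and 31.8% changed in either direction. The median log2 fold change was 0.65 over the 10 genes and -0.04 over all genes. Tlr9 (0.14), Myd88 (0.08) and Cd14 (-0.29) did not pass the test. The 7 include Tlr4 at a probe that lies far from its RefSeq transcript, and without that probe they are 6. Bulk tissue was measured, so more cells of a type and more RNA per cell cannot be told apart. Values below are log2 intensities of 1 probe and are not compared between genes.

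**Figure D1:**
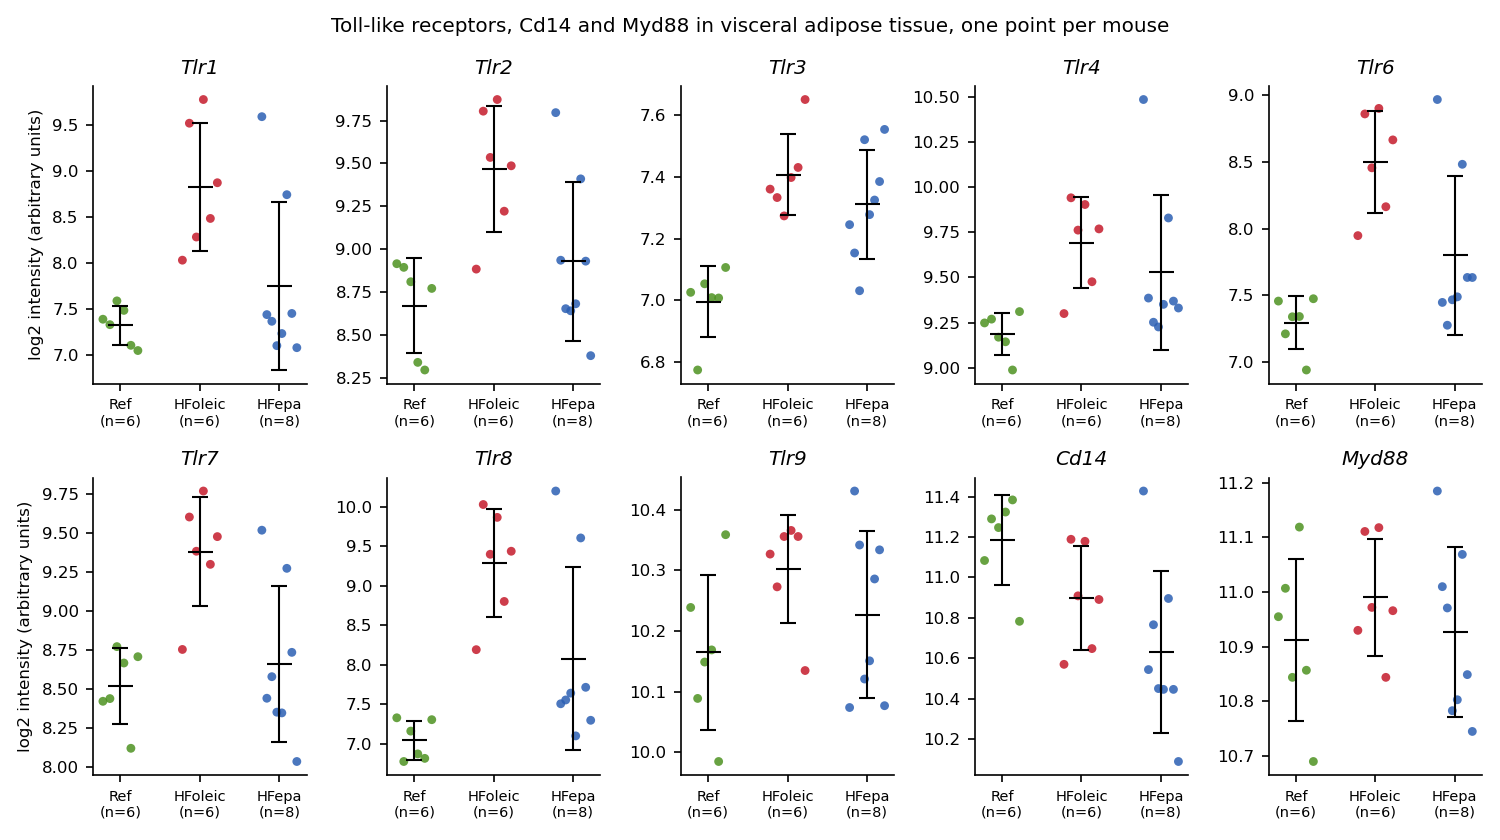
Log2 intensity of the brightest tested probe (vertical axis, arbitrary units, its own scale in each panel) of each of the 10 genes in the Ref, HFoleic and HFepa groups (horizontal axis). Each point is 1 mouse and the bars give the mean ± SD. In Tlr1, Tlr3, Tlr6 and Tlr8, all 6 HFoleic mice sit above all 6 Ref mice, and in Tlr8 the HFepa mice spread from 7.10 to 10.20.

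Tlr2, the shared partner of Tlr1 and Tlr6 in lipoprotein recognition, had a log2 intensity in Ref from 8.30 to 8.92 with a median of 8.79, in HFoleic from 8.89 to 9.87 with a median of 9.51, and in HFepa from 8.38 to 9.80 with a median of 8.81. In HFoleic, 5 of 6 mice lay above every Ref mouse. The HFoleic vs. Ref log2 fold change was 0.79 ± 0.21 (SE), or 1.73-fold, with an adjusted p of 0.00763. The HFepa vs. Ref difference was 0.26 ± 0.20 (adjusted p = 0.491), and 4 of 8 HFepa mice lay above every Ref mouse.

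Tlr1, which recognises triacylated lipoproteins together with Tlr2, ran from 7.05 to 7.59 in Ref (median 7.36), from 8.03 to 9.78 in HFoleic (median 8.68) and from 7.08 to 9.59 in HFepa (median 7.41). All HFoleic mice exceeded all Ref mice, and 2 of 8 HFepa mice did. The log2 fold change in HFoleic vs. Ref was 1.50 ± 0.38, or 2.83-fold (adjusted p = 0.00566), and a second Tlr1 probe gave 1.25 (adjusted p = 0.0158). In HFepa vs. Ref the difference at the brightest probe was 0.43 ± 0.35 (adjusted p = 0.531).

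Tlr6, the partner of Tlr2 for diacylated lipoproteins, ran from 6.94 to 7.47 in Ref (median 7.34), from 7.95 to 8.90 in HFoleic (median 8.56) and from 7.28 to 8.97 in HFepa (median 7.56). The Ref and HFoleic mice did not overlap. Tlr6 was 2.30-fold higher in HFoleic than in Ref (log2 fold change 1.20 ± 0.24, adjusted p = 0.00145). Of 8 HFepa mice, 5 were above every Ref mouse, and the HFepa vs. Ref difference of 0.50 ± 0.23 did not pass the test (adjusted p = 0.211).

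Tlr4, the receptor of lipopolysaccharide, is read by 3 probes, and they were not called alike. The brightest, at chr4:66591199-66591258, is annotated to the transcript ENSMUST00000107365 and lies 87.4 kb beyond the probe for the 3′ part of NM_021297. At that probe, Ref ran from 8.99 to 9.31 (median 9.21), HFoleic from 9.30 to 9.94 (median 9.77) and HFepa from 9.23 to 10.49 (median 9.36), and 5 of 6 HFoleic mice lay above every Ref mouse. The HFoleic vs. Ref log2 fold change was 0.50 ± 0.17, or 1.42-fold (adjusted p = 0.0307).

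The NM_021297 probes of Tlr4 were not called in the same comparison. The first, at chr4:66503724-66503782, ran from 8.87 to 9.37 in Ref and from 9.12 to 9.40 in HFoleic, with a log2 fold change of 0.15 ± 0.09 (adjusted p = 0.215). The second, at chr4:66500344-66500403, gave -0.05 ± 0.11 (adjusted p = 0.778). The Tlr4 call was thus made at the probe of the Ensembl transcript alone. The gene name of that probe is the one in the array files, and whether it reads Tlr4 RNA is not settled by these data, so the counts, slide means and correlations given for Tlr4 are those of this probe. It was lost in 7 of 12 fits that left out 1 mouse (adjusted p from 0.0148 to 0.0730 over the 12), namely those without HFoleic mouse 4, 5, 6 or 8 or Ref mouse 4, 5 or 6.

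Cd14, the surface or soluble co-receptor of Tlr4, had its highest median in Ref. Its log2 intensity ran from 10.78 to 11.38 in Ref (median 11.27), from 10.57 to 11.19 in HFoleic (median 10.90) and from 10.09 to 11.43 in HFepa (median 10.50). Below every Ref mouse lay 6 of 8 HFepa mice, and HFepa mouse 1 lay above every Ref mouse. Over all genes, 5.58% had 6 or more of 8 HFepa mice below every Ref mouse. The HFepa vs. Ref log2 fold change was -0.55 ± 0.16 with a 95% confidence interval from -0.89 to -0.22, and its adjusted p of 0.0688 missed the threshold. The second Cd14 probe gave -0.62 ± 0.17 (adjusted p = 0.0597).

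The Cd14 difference passed the test in 2 of 14 fits that left out 1 mouse, those without HFepa mouse 1 (-0.67, adjusted p = 0.0308) and without Ref mouse 7 (-0.63, adjusted p = 0.0379). Over the 14 fits it ran from -0.67 to -0.47, with adjusted p from 0.0308 to 0.147. Within each of the 3 slides, mean Cd14 was lower in HFepa than in Ref, by -0.71 to -0.42. HFoleic vs. Ref gave -0.29 ± 0.17 (adjusted p = 0.221).

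**Figure D2:**
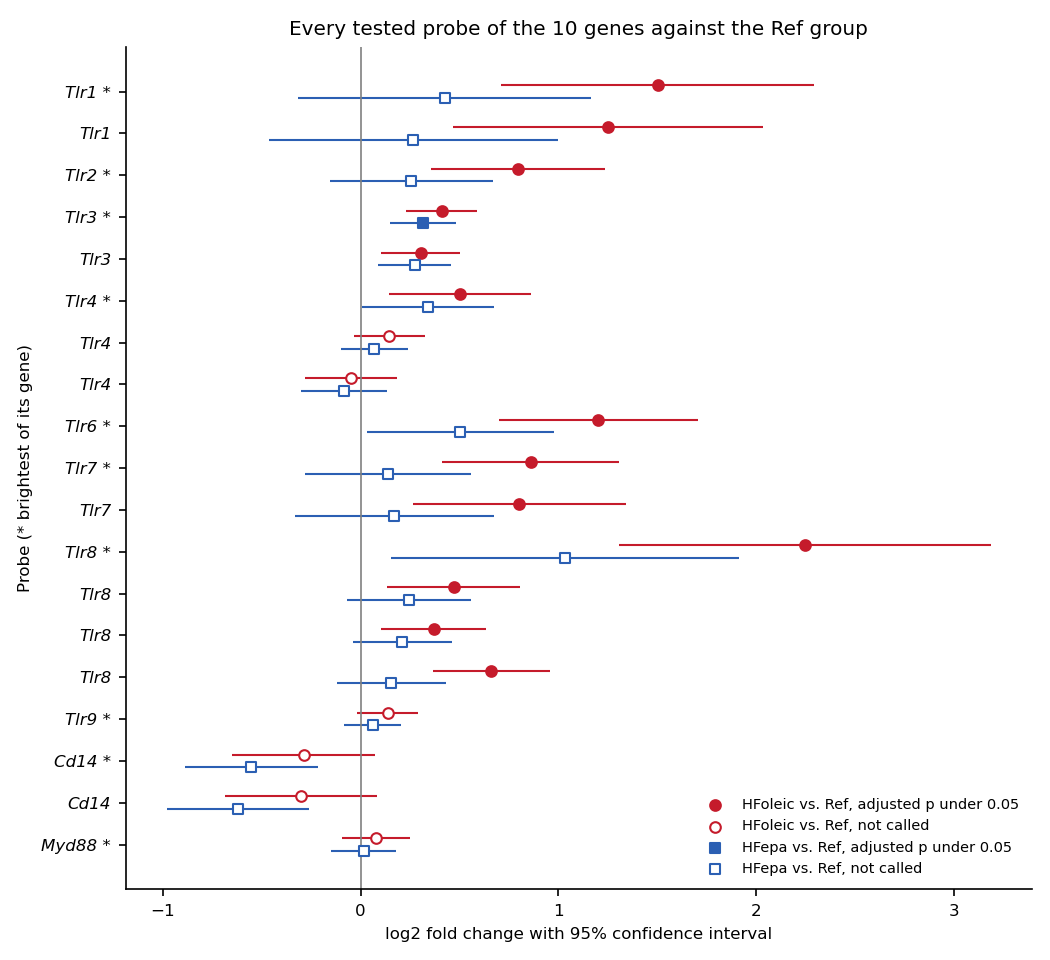
Log2 fold change against Ref (horizontal axis) with its 95% confidence interval for each of the 19 tested probes (vertical axis, grouped by gene, brightest first and starred), in HFoleic (circles) and HFepa (squares). Filled symbols passed an adjusted p of 0.05. The 4 Tlr8 probes are all filled in HFoleic vs. Ref, whereas only the starred probe of the 3 Tlr4 probes is. The Tlr8 probes A_51_P176893 and A_55_P2718309 were above background on 0 Ref arrays, so their filled symbols are no separate support.

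Of the endosomal receptors, Tlr8 had the largest difference of the 10 genes. It ran from 6.77 to 7.33 in Ref (median 7.02), from 8.19 to 10.03 in HFoleic (median 9.42) and from 7.10 to 10.20 in HFepa (median 7.60). The HFoleic and Ref mice did not overlap, and 6 of 8 HFepa mice were above every Ref mouse. The brightest Tlr8 probe is annotated to the transcript model XM_011247787, and the values here are those of this probe. In HFoleic vs. Ref the log2 fold change was 2.25 ± 0.45, or 4.75-fold with a 95% confidence interval of the log2 value from 1.31 to 3.19 (adjusted p = 0.00143). In HFepa vs. Ref it was 1.04 ± 0.42 (adjusted p = 0.169), and 0.73 without HFepa mouse 1.

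The other 3 Tlr8 probes were dimmer, were called in HFoleic vs. Ref too and gave smaller log2 fold changes. Of these, A_51_P176893 is annotated to NM_133212. For 2 of them no Ref array was above background, so their folds are lower bounds against the lowest measurable signal. These 2 probes passed the filter of 6 or more arrays through HFoleic and HFepa arrays alone. Their calls are therefore no separate support for the difference. The probe A_51_P176893 was above background on 6 of 6 HFoleic and 3 of 8 HFepa arrays, and was at least 1.49-fold higher in HFoleic than in Ref (adjusted p = 0.00203). The probe A_55_P2718309 was above background on 5 of 6 HFoleic and 4 of 8 HFepa arrays, and was at least 1.27-fold higher (adjusted p = 0.0334). The remaining probe, A_55_P1996271, gave a log2 fold change of 0.47 ± 0.16 (adjusted p = 0.031).

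Tlr7, the neighbour of Tlr8 and a sensor of single-stranded RNA, ran from 8.12 to 8.77 in Ref (median 8.56), from 8.76 to 9.77 in HFoleic (median 9.43) and from 8.04 to 9.52 in HFepa (median 8.51). In HFoleic, 5 of 6 mice were above every Ref mouse, and in HFepa 2 of 8 were. The HFoleic vs. Ref log2 fold change was 0.86 ± 0.21, or 1.81-fold (adjusted p = 0.00527), and a second probe gave 0.80 (adjusted p = 0.0225). The HFepa vs. Ref difference was 0.14 ± 0.20 (adjusted p = 0.742).

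Tlr3, the sensor of double-stranded RNA, was the 1 gene of the 10 called in HFepa vs. Ref, where 1.03% of all genes were higher and 2.46% changed in either direction. It ran from 6.77 to 7.11 in Ref (median 7.02), from 7.27 to 7.65 in HFoleic (median 7.38) and from 7.03 to 7.55 in HFepa (median 7.30). All 6 HFoleic mice and 7 of 8 HFepa mice lay above every Ref mouse. The log2 fold change was 0.41 ± 0.09 in HFoleic vs. Ref (adjusted p = 0.00181) and 0.32 ± 0.08 in HFepa vs. Ref (adjusted p = 0.0446).

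The second Tlr3 probe, near the 5′ end of the transcript, gave 0.30 ± 0.10 in HFoleic vs. Ref (adjusted p = 0.0198) and 0.27 ± 0.09 in HFepa vs. Ref (adjusted p = 0.0953). The Tlr3 call in HFepa vs. Ref stood in 3 of 14 fits that left out 1 mouse, those without HFepa mouse 2 or 3 or Ref mouse 7, with log2 fold changes from 0.27 to 0.36 over the 14 and adjusted p from 0.0140 to 0.110. Over 14 other ways of processing or fitting it was called in 8, with adjusted p from 0.0264 to 0.14. Both HFoleic vs. Ref and HFepa vs. Ref use the same 6 Ref mice. The lowest Ref value of Tlr3, 6.77 in mouse 3, therefore enters both.

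Tlr9, the sensor of unmethylated CpG DNA, ran from 9.99 to 10.36 in Ref (median 10.16), from 10.14 to 10.37 in HFoleic (median 10.34) and from 10.07 to 10.43 in HFepa (median 10.22). The 3 groups overlapped. The differences from Ref were 0.14 ± 0.07 in HFoleic (adjusted p = 0.171) and 0.06 ± 0.07 in HFepa (adjusted p = 0.66). The 95% confidence interval of the first ran from -0.02 to 0.29.

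Myd88, the adaptor of all members except Tlr3, ran from 10.69 to 11.12 in Ref (median 10.91), from 10.84 to 11.12 in HFoleic (median 10.97) and from 10.74 to 11.19 in HFepa (median 10.91). The groups overlapped along nearly their whole ranges. Its log2 fold change was 0.08 in HFoleic vs. Ref, with a 95% confidence interval from -0.10 to 0.25, and 0.01 in HFepa vs. Ref, with one from -0.15 to 0.18.

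Across the set, the HFoleic and Ref mice did not overlap in 4 of the 10 genes, all higher in HFoleic, against 6.92% of all genes. On the 3 slides of the experiment, each of which held all 3 groups, Tlr1, Tlr2, Tlr3, Tlr4, Tlr6, Tlr7 and Tlr8 had higher slide means in HFoleic than in Ref on 3 of 3. So did Tlr9 (by 0.0084 to 0.29) and Myd88 (by 0.024 to 0.21), which were not called, and Cd14 was higher on 1 of 3. Tlr8 differed by 2.12 to 2.94 within slides and Tlr7 by 0.90 to 0.92. Slide 2 held 1 HFoleic array, so its HFoleic mean is that of mouse 4 alone. The 2.94 of Tlr8 and the 1 slide with higher Cd14 are those of slide 2. The share of all genes that were higher on 3 of 3 slides was not counted.

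In HFepa vs. HFoleic, all 10 genes had lower means in HFepa and none was called by limma, with a smallest adjusted p of 0.119. Among all 25619 genes, 0% were called. The log2 differences ran from -0.06 for Myd88 to -1.21 for Tlr8, with a median of -0.40 against 0.01 over all genes. At an unadjusted p under 0.05 there were 5 of 10 genes, Tlr1, Tlr2, Tlr6, Tlr7 and Tlr8. Over all genes, 20.8% were under that p in either direction and 10% were under it and lower. Tlr8 was -1.21 ± 0.42, with a 95% confidence interval from -2.09 to -0.33. Tlr7 was -0.72 ± 0.20, from -1.14 to -0.30.

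These 5 genes were called with limma array weights, with adjusted p from 0.0196 for Tlr7 to 0.0272 for Tlr2. Such weights are set by how far each array lies from its group mean in these same data. They are no separate measure of array quality, and mice unlike their group count for less. With these weights 12% of all genes were called in either direction and 6.62% were called lower in HFepa. The 5 genes were also called when HFepa mouse 1 was left out, where Tlr8 reached -1.52 (adjusted p = 0.0271) and Tlr2 -0.66 (adjusted p = 0.0318). In that fit 7.72% of all genes were called in either direction and 4.62% lower. Without HFoleic mouse 1, Tlr7 was called (-0.85, adjusted p = 0.0353), along with 4.36% of all genes in either direction and 1.92% lower. Without HFepa mouse 6, none was, and Tlr8 stood at -1.43 (adjusted p = 0.0658), and 0.0039% of all genes were called.

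Small differences in HFepa vs. Ref, none of them called, moved by more than 1.5 times when single mice were left out. Without HFepa mouse 1, Tlr1 was 0.16, Tlr2 0.13, Tlr4 0.20 and Tlr7 0.017, against 0.43, 0.26, 0.34 and 0.14 with it. Tlr7 was 0.051 without HFepa mouse 6, 0.059 without Ref mouse 6 and 0.23 without HFepa mouse 8. Tlr9 was 0.033 without HFepa mouse 2, 0.026 without Ref mouse 6 and 0.10 without Ref mouse 7, against 0.06 with all mice.

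The HFepa mice were not alike. HFepa mouse 1 exceeded every Ref mouse in 9 of 10 genes and mouse 6 in 7, whereas the other 6 did so in 1 to 5 genes. The share of all genes that did so in each mouse was not counted. Tlr1, Tlr2, Tlr4, Tlr6, Tlr7 and Tlr8 varied together, as given below, so these counts are no result about the set. Tlr8 was 10.20 in mouse 1 and 9.61 in mouse 6 and between 7.10 and 7.71 in the other 6. Tlr1 was 9.59 and 8.75 in these mice and between 7.08 and 7.45 in the others. Tlr3 was 7.24 and 7.32 in the same mice, inside the range of the others from 7.03 to 7.55. Tlr9 was 10.07 in mouse 1, the lowest of the group by a small margin, and 10.29 in mouse 6.

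Among the HFoleic mice, mouse 1 exceeded every Ref mouse in 4 genes and the other 5 mice in 7 or 8. Here too the share of all genes was not counted.

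**Figure D3:**
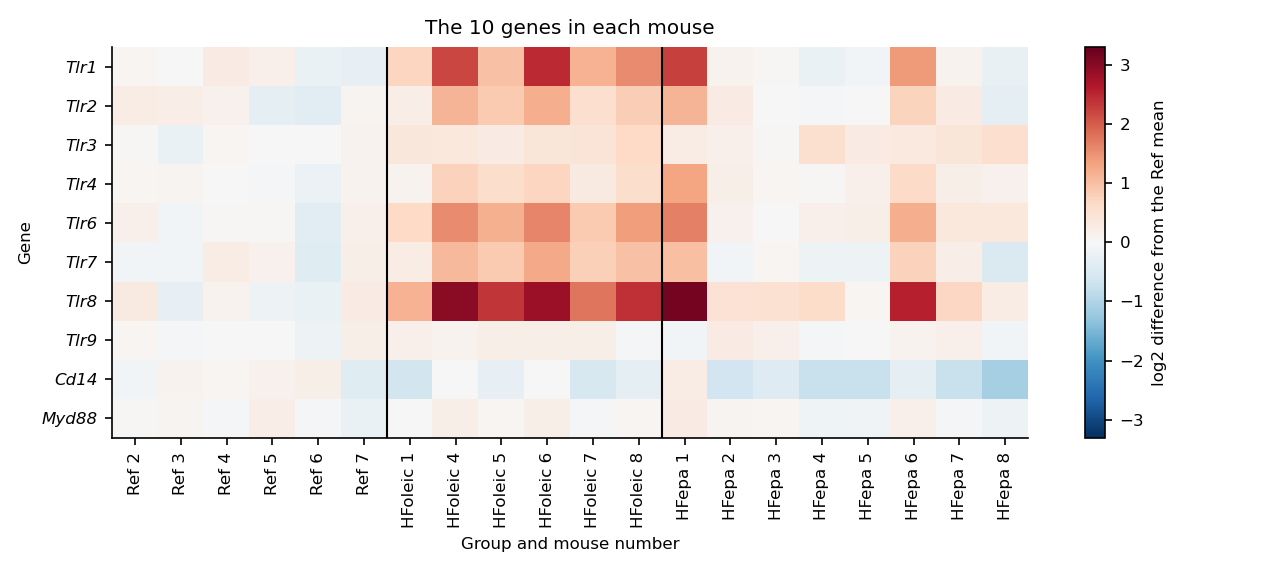
Difference of each gene (rows) in each of the 20 mice (columns, named by group and mouse number) from the mean of the 6 Ref mice, as log2 intensity on a colour scale. HFepa mice 1 and 6 have high Tlr1, Tlr2, Tlr4, Tlr6, Tlr7 and Tlr8 as most HFoleic mice do, while Tlr9 stays pale in all columns and Cd14 is blue in most HFepa mice.

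Some of the genes varied together within groups and others did not. After the group means were subtracted, Pearson's r over the 20 arrays was between 0.86 and 0.96 for the 15 pairs among Tlr1, Tlr2, Tlr4, Tlr6, Tlr7 and Tlr8. Cd14 had r from 0.68 to 0.85 with these 6 genes, although its mean was lower in both obesogenic groups, and Myd88 from 0.59 to 0.75. Tlr3 had r from -0.50 to 0.09 with the other 9 genes and Tlr9 from -0.36 to 0.12. These values are descriptions of the same 20 arrays, and HFepa mice 1 and 6 weigh in them. With those mice left out, a choice made after seeing the values, the 15 pairs ran from 0.70 to 0.91 over 18 arrays, Tlr3 from -0.55 to 0.30 and Tlr9 from -0.43 to 0.41.

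The pooled values were not those of each group. Over the 15 pairs, r ran from 0.82 to 0.99 in the 6 HFoleic mice, from 0.88 to 0.98 in the 8 HFepa mice and from -0.0072 to 0.82 in the 6 Ref mice. Cd14 had r with the same 6 genes from 0.88 to 0.97 in HFoleic and from 0.78 to 0.92 in HFepa, but from -0.80 to 0.43 in Ref. Myd88 ran from -0.55 to 0.58 in Ref. With 6 to 8 mice in a group, these are descriptions.

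Among all 25619 genes, those with the highest r to Tlr8 over the 20 arrays were Mfsd12 (0.99), Adgre1 (0.99) and Slc37a2 (0.98). For Tlr6 they were A630033H20Rik, Cd300lb and Cybb, each at 0.98 or 0.99. Those for Tlr7 were Clec4a1, Fermt3 and Slamf7, each at 0.96. Tlr1 was nearest to Stap1, C3ar1 and P2rx4 (each 0.97), Tlr2 to Plcg2 (0.98), Arhgdib and Emp3 (each 0.97), and the Tlr4 probe to Ncf1 (0.98), Rgs18 and Cntn6 (each 0.97). For Tlr3 the highest r was lower, with 0.89 for the transcript ENSMUST00000067743, 0.86 for Mylpf and 0.85 for a non-coding transcript of chromosome 5. Adgre1 encodes a macrophage surface protein and Cybb a subunit of the phagocyte oxidase.

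Macrophage markers varied with part of the set. After the group means were subtracted, the mean of 9 markers had r from 0.895 to 0.953 with Tlr1, Tlr2, Tlr4, Tlr6, Tlr7 and Tlr8. With Cd14 r was 0.79, with Myd88 0.67, with Tlr3 -0.18 and with Tlr9 0.067. In the 6 Ref mice alone, r for the same 6 receptors ran from 0.36 to 0.90. Of 9 markers, 6 were called higher in HFoleic vs. Ref (Adgre1, Cd68, Csf1r, Fcgr1, Lyz2 and Mrc1), 1 was called lower (Cd163), and Itgam and Mertk were not called. Over all genes, 15.2% were called higher and 16.7% lower. The mean log2 intensity of the list ran from 11.37 to 11.81 in Ref, from 12.19 to 13.14 in HFoleic and from 11.41 to 13.06 in HFepa. By limma, 0 of the 9 were called in HFepa vs. Ref (4 at an unadjusted p under 0.05) and 0 in HFepa vs. HFoleic (6 at an unadjusted p under 0.05). Over all genes, 20.8% were under that p in HFepa vs. HFoleic. The share in HFepa vs. Ref was not counted, so its count is no result about the list. HFepa mice 1 and 6 had list means of 13.06 and 12.87. All 9 markers were above background on all 20 arrays.

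With the list mean as a covariate in the limma fit, 0 of the 10 genes and 0 of 25619 genes were called in HFoleic vs. Ref. At an unadjusted p under 0.05 there were 2 of the 10, Tlr3 and Cd14. The share of all genes under that p in this fit was not counted, so this is no result about the set. The Tlr8 log2 difference then was 0.25 ± 0.21 and that of Tlr6 0.19 ± 0.16, while those of Tlr1, Tlr2, Tlr4 and Tlr7 were -0.11, -0.13, -0.20 and -0.083. Tlr3 kept its size, at 0.48 ± 0.13 in HFoleic vs. Ref (adjusted p = 0.257) and 0.34 ± 0.09 in HFepa vs. Ref (adjusted p = 0.14). The Ref and HFoleic mice do not overlap in the list mean, so this fit cannot separate the covariate from the group.

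Cd14 was the exception, with -0.81 ± 0.12 in HFepa vs. Ref (adjusted p = 0.0132), a call shared by 0.113% of all genes in that fit. In HFoleic vs. Ref it was -0.91 ± 0.16 (adjusted p = 0.148). The fit uses 1 slope on the list mean for all groups. Cd14 had r with the list mean of -0.61 in Ref, 0.97 in HFoleic and 0.92 in HFepa. That slope does not describe the Ref mice, and the adjusted differences depend on it. Cd14 lay between 10.78 and 11.38 in Ref mice with list means of at most 11.81. It lay between 10.57 and 11.19 in HFoleic mice with list means of at least 12.19. The part of cell composition in these differences was not tested.

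**Figure D4:**
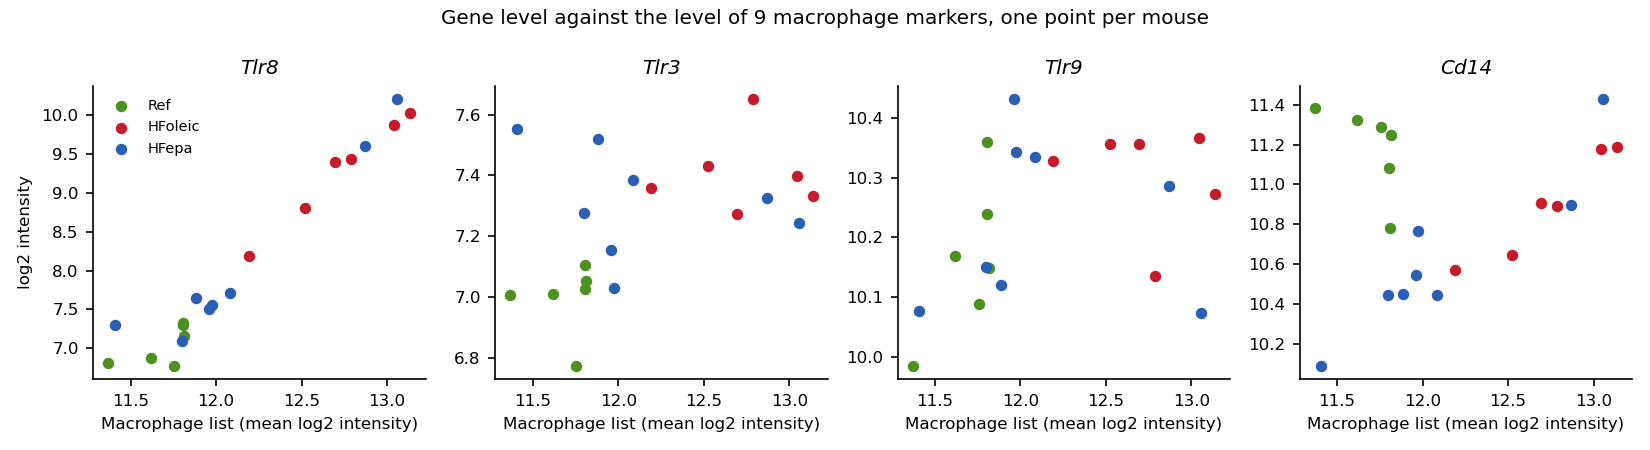
Log2 intensity of Tlr8, Tlr3, Tlr9 and Cd14 (vertical axes) against the mean log2 intensity of 9 macrophage markers (horizontal axis), with 1 point for each mouse, coloured by group. Tlr8 climbs along the horizontal axis through all groups. Cd14 of Ref mice sits between 10.78 and 11.38 at list means of 11.37 to 11.81, above the HFepa mice of like list means.

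Promoter letters were read from RefSeq (GRCm38.p6) for the 250 bases before the start of each transcript, where 9 windows covered 7 of the 10 genes. The letters GAGGAA, a core recognised by the myeloid factor PU.1, and TGACTCA, which binds AP-1, were searched on both strands, and they do not overlap each other. GAGGAA was found in 3 of the 9 windows, of Tlr1, Tlr8 and Tlr9, and in 23.3% of all 32851 windows. TGACTCA was found in 1, of Tlr9, and in 4.46% of all windows. The windows of Tlr1 (chr5:64933559-64933808, minus strand), Tlr8 (chrX:167264330-167264579, minus strand) and Tlr9 (chr9:106222348-106222597, plus strand) are shown because they hold the matches. Tlr1 and Tlr8 were called in HFoleic vs. Ref and Tlr9 was not. No match was found in the other Tlr1 window or in those of Tlr2, Tlr3, Tlr6 and Myd88. Tlr2, Tlr3 and Tlr6 were called in HFoleic vs. Ref as well. Capitals mark the matches, which read TTCCTC in Tlr8 because GAGGAA is on the other strand there.
Tlr1: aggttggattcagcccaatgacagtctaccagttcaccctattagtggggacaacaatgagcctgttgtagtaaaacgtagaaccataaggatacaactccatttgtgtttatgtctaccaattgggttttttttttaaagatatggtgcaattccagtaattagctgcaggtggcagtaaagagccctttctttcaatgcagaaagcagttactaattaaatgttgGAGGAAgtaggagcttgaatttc
Tlr8: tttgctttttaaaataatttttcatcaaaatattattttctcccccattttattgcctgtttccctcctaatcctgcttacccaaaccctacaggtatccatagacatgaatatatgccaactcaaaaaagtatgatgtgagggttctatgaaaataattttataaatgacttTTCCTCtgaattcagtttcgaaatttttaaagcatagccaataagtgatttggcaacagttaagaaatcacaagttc
Tlr9: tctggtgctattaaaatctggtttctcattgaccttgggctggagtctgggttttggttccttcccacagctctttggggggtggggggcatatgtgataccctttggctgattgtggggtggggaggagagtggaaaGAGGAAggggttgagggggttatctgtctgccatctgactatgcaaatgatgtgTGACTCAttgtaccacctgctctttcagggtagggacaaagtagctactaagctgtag
A match is a description of the letters and says nothing of binding in these mice.

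Other genes of the pathway were read from 8 lists that held 70 genes, of which 69 were tested (Ifnb1 was not). In HFoleic vs. Ref, 28 of 69 were called, 22 higher and 6 lower, with a median log2 fold change of 0.16, against 31.8% of all genes called. In HFepa vs. Ref, 2 of 69 were called, against 2.46% of all genes. In HFepa vs. HFoleic, 0 of 69 were called by limma and 21 had an unadjusted p under 0.05, against 20.8% of all genes. Within lists, counts such as 2 of 8, 3 of 9 and 5 of 14 lie near the 31.8% of all genes and are no result about the list. The genes named below are the 3 with the smallest p in HFoleic vs. Ref in each list, unless said otherwise.

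Of 4 further receptors, 3 were called. Tlr13, a mouse sensor of bacterial ribosomal RNA, ran from 8.42 to 9.05 in Ref and from 9.68 to 11.72 in HFoleic, without overlap, at a log2 fold change of 2.20 ± 0.50 (adjusted p = 0.00305). Tlr11, a sensor of profilin, was 0.35 higher, and Tlr5, the flagellin receptor, fell by 0.43.

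Of 8 co-receptors and chaperones, 4 were called, all higher. Lbp carries lipopolysaccharide to Cd14, and its log2 fold change was 1.76 ± 0.28 when HFoleic was set against Ref (adjusted p = 0.00045). The corresponding HFepa value was 0.88 ± 0.26 (adjusted p = 0.0718). Cd180 (1.79) and its partner Ly86 (1.54), which form a receptor complex related to Tlr4, were higher as well. Unc93b1, the protein that takes the nucleic acid sensing TLR to endosomes and the fourth called gene of the list, was 1.00 higher. Ly96, the direct partner of Tlr4, was 0.22 ± 0.13 (adjusted p = 0.23).

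Of 13 adaptors and proximal kinases, 3 were called higher and 2 lower. Traf6, the ubiquitin ligase below Myd88, changed by -0.61 ± 0.09 on the log2 scale (adjusted p = 0.000294), and the kinase gene Irak2 by -0.42. Traf3, which serves the interferon branch, rose by 0.75 in the HFoleic group, and its rise of 0.45 ± 0.10 in the HFepa group was called as well (adjusted p = 0.0303). Over all genes, 15.2% were called higher and 16.7% lower in HFoleic vs. Ref, so these counts are no result about the list.

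Of 8 genes of the IKK and NF-kappaB list, 2 were called higher and 2 lower. The subunit genes Nfkb2 (0.43) and Rel (0.54) were higher, and the kinase genes Ikbkb (-0.21) and Chuk (-0.28, the fourth called gene) lower. Of 5 genes of the interferon regulatory factor branch, 2 were called, Irf5 (1.47) and the kinase gene Ikbke (0.86). Irf3 did not pass the test (-0.19, adjusted p = 0.0526).

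Of 8 genes of the MAP kinase branch, 2 were called, the kinase genes Map2k6 (0.72) and Map2k3 (0.24), and Mapk9 gave -0.22 (adjusted p = 0.0543). Of 9 inhibitors, 2 were called higher and 1 lower. Tnfaip3, which edits ubiquitin chains on signalling proteins, was 0.60 higher, and Il1rl1, a receptor of the interleukin 1 family, 0.63. Nfkbia, the inhibitor that holds NF-kappaB in the cytoplasm, had -0.48.

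Of 14 tested induced targets, 5 were called, all higher. Ccl2, a chemokine for monocytes, differed from Ref by 2.26 ± 0.37 on the log2 scale in HFoleic mice (adjusted p = 0.000482). In HFepa mice it differed by 1.11 ± 0.35 (adjusted p = 0.0875). Ccl3, another chemokine, was 1.27 higher. Nos2, the inducible nitric oxide synthase, was 0.53 higher in HFoleic and 0.44 ± 0.11 higher in HFepa (adjusted p = 0.0409), which with Traf3 makes the 2 genes called in HFepa vs. Ref.

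**Figure D5:**
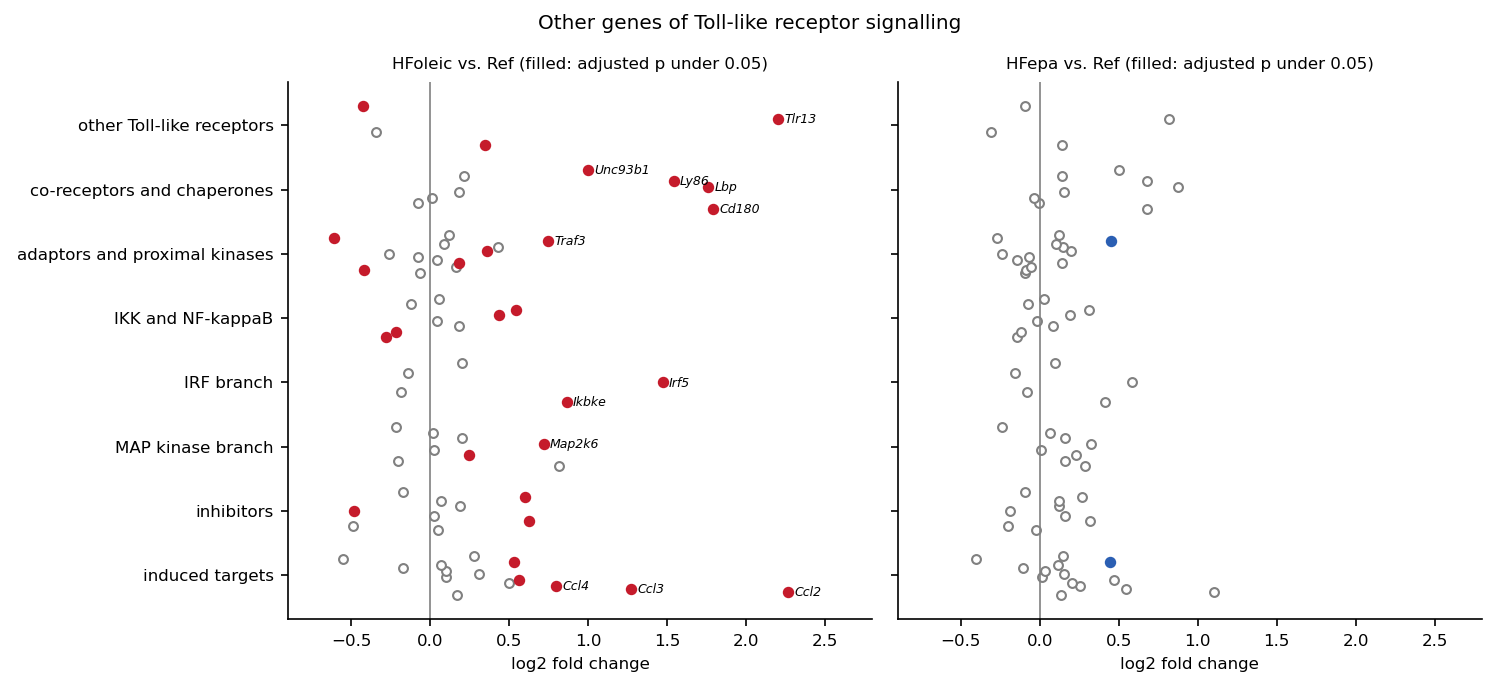
Log2 fold change (horizontal axes) of the 69 tested genes of 8 lists (vertical axis) in HFoleic vs. Ref (left) and HFepa vs. Ref (right), with 1 point for each gene. Filled points passed an adjusted p of 0.05, 28 on the left and 2 on the right, and called genes beyond 0.7 are named.

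Markers of other cells were read on the same arrays. In HFoleic vs. Ref, 0 of 5 B cell, 0 of 6 T cell, 0 of 5 endothelial, 0 of 5 mesothelial and 0 of 2 tested epididymis markers were called by limma, and 2 of these 23 had an unadjusted p under 0.05. Over all genes, 31.8% were called, and the share under that unadjusted p was not counted. Called were 1 of 6 neutrophil markers (S100a8, log2 fold change 2.46), 1 of 5 mast cell markers (Kit, -0.43), 1 of 3 plasmacytoid dendritic cell markers (Cox6a2, 2.41), 1 of 5 progenitor and fibroblast markers (Col1a1, 1.49) and 1 of 4 testis markers (Tnp2, -0.25). Of 8 adipocyte markers, Lep was higher (1.13) and Lipe lower (-1.19). Of 4 conventional dendritic cell markers, Clec9a (0.78) and Flt3 (1.00) were higher and Zbtb46 lower (-0.65). Epididymis markers were high in Ref mouse 3 (list mean 9.94), HFepa mouse 2 (8.82) and Ref mouse 6 (7.85), and at most 6.83 elsewhere. Testis markers were high in HFoleic mouse 5 (list mean 9.06), Ref mouse 6 (8.41), Ref mouse 3 (8.27) and HFepa mouse 4 (8.10), and at most 6.60 elsewhere. Their part in the values of these mice was not tested.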

How the data were processed

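RNA of 20 mice was hybridized on 1-colour Agilent arrays, and each sample's group was taken from its label. The deposited files of the authors hold scanner intensity for 62976 spots, written by Agilent Feature Extraction 10.10.1.1 per the file headers, with coordinates on mm9. A deposited table of log2 values by the authors, from limma according to the submitters' processing notes, served as an alternative. Here, outlier spots (38 to 76 per array) were removed, the median intensity was put on a log2 scale and quantile-normalized, spots of a probe were averaged, and limma 3.58.1 in R 4.3.3 was fitted on 20 arrays with Benjamini-Hochberg adjustment. No spot was saturated, 66.06% to 71.88% of spots were above background, and the number of arrays limits the precision. Labels give separate mice, and p-values measure the spread between them, not a spread between litters or lineages.

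The named genes were all members with all probes, the 3 genes of smallest p in HFoleic vs. Ref in each pathway list, and for each called member the 3 genes of highest within-group r. The symbol Acod1 was matched by its older name Irg1. The members and lists were chosen with earlier results of these data known. The procedure was tested on simulated data with 200 changed probes. Alternatives were another signal, scaling, filter, block, weighting or probe rule, the authors' table, the macrophage list as covariate, and each mouse left out. Exon and UTR annotation was not used here, and RefSeq promoters were not used for Tlr4, Tlr7 and Cd14.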

Additional observations from a re-analysis of the deposited data

Results flagged for a closer look

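Tlr3 in Ref mouse 3 was far from the other Ref mice, with a log2 intensity of 6.77 against 7.01 for the next lowest. This gap was 0.702 of the range of the 6 Ref mice, over Dixon's critical value for 6 samples. It was 1 of 30 combinations of gene and group examined, and chance alone sets apart about 1 in 20. Without this mouse the HFepa vs. Ref log2 fold change of Tlr3 was 0.27 (adjusted p = 0.110 in limma) and the HFoleic vs. Ref value stayed called. The same mouse had the highest epididymis marker mean, 9.94. Whether that bears on its Tlr3 value was not tested.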

How the results depend on the processing

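The number of genes called in HFoleic vs. Ref was 6 to 7 under every alternative, leave-one-out included, except 0 with the macrophage list as a covariate. In HFepa vs. Ref, where 1 gene was called, the number was 0 under median centring, without the filter on dim probes, with slide as a block, with only the 2 groups compared and with the replicate number as a block, 2 with array weights, and 0 to 2 when single mice were left out. In HFepa vs. HFoleic it was 5 with array weights and 0 to 5 when single mice were left out. Of the pathway genes, 1 was called in HFepa vs. Ref under median centring and 1 with the processed signal, in place of 2. Replicate numbers gave no pairing: over 16 same-numbered pairs r ran from -0.59 to 0.56, with 5 over 0.1, and 2 of 20 arrays correlated best with their own number. That block left 6 genes called in HFoleic vs. Ref, Tlr4 being lost (adjusted p = 0.176), as it was when the probes of each gene were averaged (adjusted p = 0.104). With the macrophage covariate the sign turned in HFoleic vs. Ref for Tlr1 (-0.11), Tlr2 (-0.13), Tlr4 (-0.20), Tlr7 (-0.083) and Myd88 (-0.16), in HFepa vs. Ref for Tlr1 (-0.25), Tlr2 (-0.13), Tlr7 (-0.26) and Myd88 (-0.084), and in HFepa vs. HFoleic for Tlr4 (0.24), Cd14 (0.10) and Myd88 (0.074). With single mice left out, Myd88 in HFepa vs. Ref ran from -0.030 to 0.056, turning without HFepa mouse 1 (-0.022), HFepa mouse 6 (-0.0054) or Ref mouse 7 (-0.030). The cause was not tested. The share of called genes that were higher in HFoleic vs. Ref was 47.6%, 44% under median centring and 42.8% with the processed signal. Signal over background limits the 2 dim Tlr8 probes, and the third Tlr7 probe has no test.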
